A study of Mus musculus with 16 samples.

Results

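Microglia, the resident macrophages of the brain, and the macrophages of its borders were followed through 33 genes that mark them, out of 19938 genes measured. The 33 genes were chosen by name, with earlier results of these data known. Each had exactly 1 probe set on the array, and all 33 entered the tests. In control mice 12 of them (36.4%, against 14.9% of all genes) were lower in the olfactory bulb (OB) than in the subependymal zone (SEZ). The SEZ is the niche of adult neural stem cells beside the lateral ventricle. Only Sall1 was higher (3.03%, against 12.6% of all genes). Among the 12, the calls of Siglech, Cx3cr1, Cd53 and Tmem119 ended when certain single arrays were left out. The border macrophage genes Mrc1, Cd163 and Lyz2 did not pass the test in any comparison. In neither tissue did a member pass between controls and mice with a conditional knockout (cKO) of Brg1.

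RNA came from the OB core or the SEZ of mice aged 2.5 months on a mixed background of C57BL/6 and CD1. The 4 groups were OB cKO (3 arrays), OB control (5 arrays), SEZ cKO (3 arrays) and SEZ control (5 arrays). The cKO mice were GlastCreERT2/Brg1fl/fl and the controls GlastCreERT2/Brg1fl/+, except SEZ control replicate 5, labelled GlastCreERT2/Brg1+/+. All groups therefore carried the CreERT2 recombinase in the locus of Glast (Slc1a3), a glutamate transporter of astrocytes and neural stem cells, and all controls but that one also carried 1 floxed copy of Brg1. Brg1, the product of Smarca4, is the ATPase of SWI/SNF chromatin remodelling complexes. The labels give the sex as not determined and name neither a treatment nor the time at which the recombinase was switched on. The labels call the samples biological replicates.

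Microglia descend from yolk sac progenitors and renew themselves in the brain. They need signals through the receptor Csf1r, whose ligands are CSF1 and IL34, and the transcription factors PU.1 (gene Spi1) and Irf8. In the healthy brain they express a homeostatic set of genes, among them the purinergic receptor P2ry12, the surface protein Tmem119 and the fractalkine receptor Cx3cr1. Macrophages of the meninges, the perivascular space and the choroid plexus share much of the myeloid programme but are marked by the mannose receptor Mrc1 and the haemoglobin scavenger receptor Cd163. In bulk tissue, fewer cells of a type and less RNA per cell cannot be told apart.

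Promoter sequences were looked at for the box of PU.1, because Spi1 is itself a member and PU.1 is known in mouse to bind purine-rich boxes with the core GAGGAA. RefSeq sequences of the build GRCm38.p6 were at hand for 24 of the 33 members. The core, on either strand, lay within 250 bases before the start in 14 of 24 members (58.3%), against 6252 of 27025 genes in the table (23.1%). The TATA box TATAAA, searched on both strands in the same windows, was found in 4 of 24 members (16.7%) and in 12.97% of genes. The letters of the 2 motifs do not overlap each other. In the last 60 bases before the start, a window chosen after the positions had been seen, the core lay in 10 of 24 members (41.7%) against 1632 genes (6.04%). The windows printed here are those of the 9 members with a sequence that differed between the tissues in controls, as described further on. The core or its reverse complement TTCCTC is in capitals:
Trem2, chr17:48346341-48346400, plus strand: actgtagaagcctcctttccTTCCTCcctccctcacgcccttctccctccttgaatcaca
Cd53, chr3:106790150-106790209, minus strand: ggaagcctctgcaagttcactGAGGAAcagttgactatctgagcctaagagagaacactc
Aif1, chr17:35176053-35176112, minus strand: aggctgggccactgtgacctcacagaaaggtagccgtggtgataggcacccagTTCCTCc
Cd68, chr11:69666171-69666230, minus strand: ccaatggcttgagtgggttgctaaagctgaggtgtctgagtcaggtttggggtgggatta
C1qc, chr4:136892915-136892974, minus strand: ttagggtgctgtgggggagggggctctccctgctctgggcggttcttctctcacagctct
Cx3cr1, chr9:120068297-120068356, minus strand: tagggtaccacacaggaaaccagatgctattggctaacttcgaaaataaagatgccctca
Siglech, chr7:55768124-55768183, plus strand: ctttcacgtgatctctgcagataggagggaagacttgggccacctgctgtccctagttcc
Irf8, chr8:120736298-120736357, plus strand: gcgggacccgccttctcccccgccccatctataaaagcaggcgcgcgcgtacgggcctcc
Sall1, chr8:89044163-89044222, minus strand: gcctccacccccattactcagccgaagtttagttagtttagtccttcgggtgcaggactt

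The core stands in 3 of these 9 windows, those of Trem2, Cd53 and Aif1, and in 7 of the 15 windows of the other members. Cd68 and C1qc have one farther out, within 250 bases, and Cx3cr1, Siglech, Irf8 and Sall1 have none there. A match is a run of letters and not a measured site, and no match says only that these letters are not in the window. Some members are neighbours in the genome, with no protein-coding gene between them. They are P2ry12 and P2ry13, Tmem119 and Selplg, and the genes C1qb, C1qc and C1qa, in that order.

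Values are log2 expression from arrays normalised together. Array medians ran from 7.45 to 7.65, and lower quartiles from 5.89 to 6.13. Gpr34 and Cd163 averaged below the highest of these quartiles in all 4 groups and Cd86 in 2, so these 3 genes were measured near the low end of the arrays. Smarca4 averaged 11.02 in OB cKO and 11.01 in OB control arrays, and 10.70 in SEZ cKO and 10.71 in SEZ control arrays. Its probe set is not resolved by exon, so it checks nothing about the deletion. Slc1a3 was low on cKO replicate 3 of both tissues, at 8.85 in OB and 8.16 in SEZ, against at least 11.64 in OB controls and 11.18 in SEZ controls. The cortical neuron genes Slc17a7 and Tbr1 were high in SEZ control replicates 2 and 4, with Slc17a7 at 10.58 and 11.06 there and 8.44 to 8.98 in the other SEZ controls. After the group means were removed, the strongest remaining component held 41.0% of the variance and cut the arrays into 2 clusters, each with arrays of all 4 groups. Array medians ran from 7.557 to 7.654 in the first cluster and from 7.4485 to 7.544 in the second, so the clusters also differ in array median. Among members, Mpeg1 (-0.73), Lyz2 (-0.65), C1qa (-0.47) and Fcgr3 (-0.44) differed most between the clusters. The cluster was tried as a block after the data were seen, and it is given where it changes a count.

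**Figure D1:**
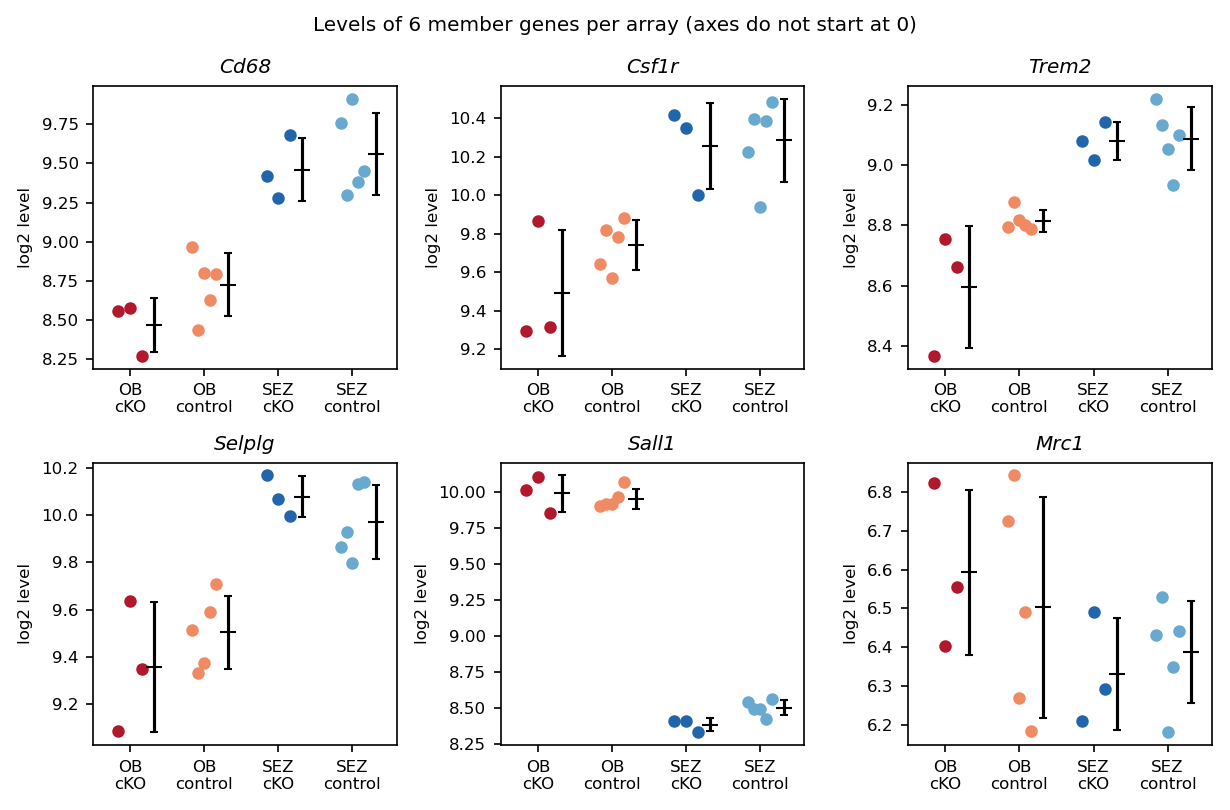
Log2 levels of 6 genes on each array (points) with the mean and SD of each group (black). Cd68, Csf1r, Trem2 and Selplg lie lower in both OB groups than in both SEZ groups, Sall1 lies higher, and the levels of Mrc1 overlap. The axes do not start at 0, and levels of different genes are not comparable.

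The first comparison was between the tissues in control mice. By limma, with Benjamini-Hochberg adjustment across the 19938 genes and a threshold of 0.05, 12 of 33 members (36.4%) were lower in OB, where 14.9% of all genes were, and 1 (3.03%) was higher, where 12.6% of all genes were. The median difference of the members was -0.25 on the log2 scale, against 0.003 over all genes, and 29 of 33 estimates were below 0 (49.1% of all genes). In 9 members every OB control lay below every SEZ control (11.9% of all genes), and in 1, Sall1, every OB control lay above (9.93%).

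Among lysosomal and phagocytic genes Cd68 fell furthest. Cd68, a glycoprotein of macrophage lysosomes, was at 8.97, 8.43, 8.80, 8.63 and 8.79 in OB controls, against 9.76, 9.30, 9.91, 9.38 and 9.45 in SEZ controls. All OB values lay below all SEZ values, and the highest OB value was 8.97. The difference was -0.84 (SE 0.13, adjusted p = 6.03e-05), a 1.79-fold lower level in OB. The lysosomal protease Ctss was at -0.45 (SE 0.16, adjusted p = 0.0536), the pore-forming protein Mpeg1 at -0.61 (SE 0.26, adjusted p = 0.1), and the lysosomal membrane protein Laptm5 at -0.21 (SE 0.10), none of which passed. Ctss averaged 9.35 ± 0.32 in OB and 9.80 ± 0.31 in SEZ controls (SD, n = 5 each), so its groups overlapped.

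Of the surface receptors of myeloid cells, Csf1r and Cd53 passed. Csf1r, the receptor that keeps microglia alive, was at 9.64, 9.82, 9.57, 9.78 and 9.88 in OB controls, against 10.22, 10.39, 9.94, 10.38 and 10.48 in SEZ controls. No OB array reached the lowest SEZ array. The difference was -0.55 (SE 0.13, adjusted p = 0.00288), or 1.46-fold lower in OB. The tetraspanin Cd53 averaged 8.44 ± 0.10 in OB and 8.77 ± 0.16 in SEZ controls (SD, n = 5 each), a difference of -0.33 (adjusted p = 0.0295). The integrin chain Itgam (CD11b) was at -0.35 (adjusted p = 0.0842) and the Toll-like receptor partner Ly86 at -0.34 (adjusted p = 0.129). The lipopolysaccharide co-receptor Cd14 was at -0.20, the costimulatory ligand Cd86 at -0.16 and the phosphatase Ptprc (CD45) at 0.07, and these 3 did not pass either.

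The homeostatic genes split. Of 8, Selplg, Siglech, Tmem119 and Cx3cr1 fell, Sall1 rose, and P2ry12, P2ry13 and Gpr34 did not pass. Selplg, the P-selectin ligand, was at 9.52, 9.33, 9.37, 9.59 and 9.71 in OB controls, against 9.86, 9.93, 9.80, 10.13 and 10.14 in SEZ controls. The groups did not overlap, and the difference was -0.47 (SE 0.10, adjusted p = 0.00208). Tmem119 averaged 9.07 ± 0.07 in OB and 9.38 ± 0.22 in SEZ controls (SD, n = 5 each), a difference of -0.31 (adjusted p = 0.0226). Siglech, a lectin of microglia, was at -0.32 (adjusted p = 0.0416), with overlapping groups. Cx3cr1 was at 9.61, 9.59, 9.33, 9.47 and 9.56 in OB controls, against 9.82, 9.75, 9.65, 9.75 and 9.74 in SEZ controls. Its groups did not overlap but lay close, and the difference was -0.23 (SE 0.08, adjusted p = 0.0284).

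The purinergic receptors of the set did not pass. P2ry12, which steers microglial processes toward ATP released at injuries, was at 8.26, 8.24, 8.33, 8.26 and 8.24 in OB controls, against 8.28, 8.27, 8.38, 8.38 and 8.34 in SEZ controls. Its difference was -0.07 (95% interval -0.17 to 0.04, adjusted p = 0.414). P2ry13, its genomic neighbour and also a receptor of ADP, was at -0.25 (95% interval -0.59 to 0.08), and the lysophosphatidylserine receptor Gpr34 at -0.18 near the low end of the arrays.

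Sall1 stood apart from the other homeostatic genes. This zinc finger transcription factor marks microglia among mouse brain macrophages, but it is also known in neural progenitors and in the development of the olfactory bulb, so bulk tissue does not give its source. It was at 9.90, 9.92, 9.92, 9.97 and 10.07 in OB controls, against 8.54, 8.49, 8.50, 8.42 and 8.56 in SEZ controls. The difference was 1.45 (SE 0.06, adjusted p = 6.13e-12), a 2.74-fold higher level in OB, and the groups lay far apart.

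The transcription factors of the myeloid lineage fell in OB. Irf8, the interferon regulatory factor that microglia need, was at 7.78, 7.70, 7.56, 7.98 and 7.87 in OB controls, against 8.29, 8.02, 8.09, 8.38 and 8.21 in SEZ controls. The groups did not overlap, and the difference was -0.42 (SE 0.09, adjusted p = 0.00169). Spi1, which encodes PU.1, averaged 7.46 ± 0.15 in OB and 7.80 ± 0.16 in SEZ controls (SD, n = 5 each), a difference of -0.34 (adjusted p = 0.00652), with 2 OB values above the lowest SEZ value. Aif1, which encodes the actin-binding microglial marker Iba1, was at -0.43 (SE 0.12, adjusted p = 0.0137). Hpgds, the haematopoietic prostaglandin D synthase, was at -0.22 and did not pass (adjusted p = 0.124).

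Of the receptors that signal through ITAM motifs, Trem2 passed. Trem2, a lipid-sensing receptor of microglia, was at 8.80, 8.88, 8.82, 8.80 and 8.79 in OB controls, against 9.22, 9.13, 9.05, 8.93 and 9.10 in SEZ controls. The OB values were close together and all lay below the SEZ values, with a difference of -0.27 (SE 0.07, adjusted p = 0.00868). Its adaptor Tyrobp (DAP12) had the same size of difference, -0.27, with a wider spread (SE 0.11, adjusted p = 0.0955). The Fc receptor gamma chain Fcer1g was at -0.19 and the Fc receptor Fcgr3 at -0.23, and neither passed. Of the 3 chains of the complement protein C1q, C1qc fell by 0.25 (adjusted p = 0.016), and C1qa and C1qb were at -0.20 and -0.13 without passing.

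**Figure D2:**
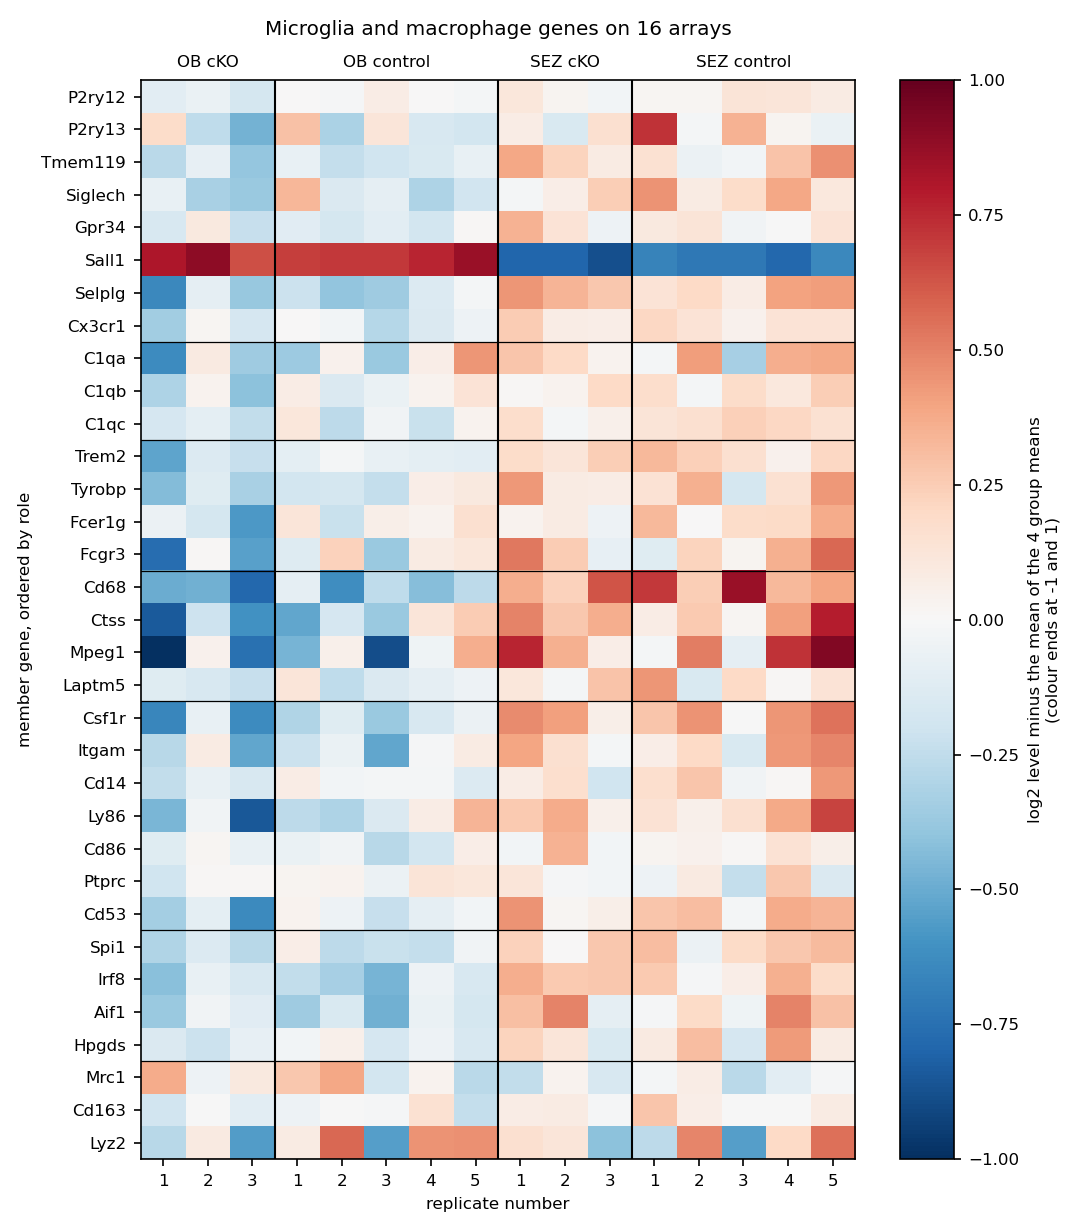
Each of the 33 genes (rows, by role) on each of 16 arrays (columns), as the log2 level minus the mean of the 4 group means. Blue prevails in the OB columns and red in the SEZ columns for most genes, Sall1 has the opposite colours, and the border macrophage genes in the last 3 rows show neither pattern.

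Cd68, Csf1r, Irf8, Sall1, Selplg, Spi1 and Trem2 passed in every alternative run, 29 for each gene and 28 for Irf8 and Spi1. Aif1 and C1qc lost the call once, without SEZ control replicates 2 and 4 (adjusted p = 0.102 and 0.063). The call of Siglech also ended in the fit on only the 2 groups (adjusted p = 0.0638) and that of Cd53 with median centring (adjusted p = 0.0516). Leaving out a single array ended the call of Siglech (OB control replicate 2, 3, 4 or 5, SEZ control replicate 1, 3 or 4, or SEZ cKO replicate 2), of Cx3cr1 and Cd53 (for both, OB control replicate 3 or 4 or SEZ control replicate 1, 2, 4 or 5) and of Tmem119 (OB control replicate 2 or 3 or SEZ control replicate 4 or 5). Same-numbered control arrays of both tissues deviated together, although by the labels the 2 arrays of number 5 differ in genotype (Brg1fl/+ in OB, Brg1+/+ in SEZ). The number entered as a fixed term common to all groups, also those not taken as paired. With this block 18 members passed. The 5 gained were Ctss (adjusted p = 0.00184), Itgam (0.0021), Mpeg1 (0.00666), Ly86 (0.0255) and Tyrobp (0.038), all lower in OB. With the array cluster as a block 19 passed, the 6 gained being these 5 and Fcgr3 (adjusted p = 0.0405). Counts over all genes in these runs are not given here, so the gains are not read as particular to the members.

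The same comparison in cKO mice uses none of the control arrays, although both draw on one estimate of the spread. In OB cKO arrays 14 of 33 members (42.4%) were lower than in SEZ cKO arrays, where 13.1% of all genes were, and 1, Sall1, was higher, where 10% of all genes were. The members had a median of -0.36, against -0.02 over all genes, and 31 of 33 estimates were below 0 (53.5% of all genes). In 18 members every OB cKO array lay below every SEZ cKO array (19% of all genes), and in 1 every array lay above (14.3%). Of the calls, 10 were shared with the controls, which is 76.9% of the control calls and 66.7% of the cKO calls, and 31 of 33 members had the same sign in both, the exceptions being Ptprc and Lyz2. The overlap and the signs were counted over members only. Without the shares over all genes they are not read as particular to the members.

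The sizes in cKO mice were as follows. Cd68 was at 8.56, 8.57 and 8.27 in OB cKO, against 9.42, 9.28 and 9.68 in SEZ cKO arrays, a difference of -0.99 (SE 0.16, adjusted p = 0.0002). Selplg differed by -0.72 (adjusted p = 0.000602), Csf1r by -0.76 (adjusted p = 0.00193), Irf8 by -0.52 (adjusted p = 0.0034) and Trem2 by -0.48 (adjusted p = 0.000867). Sall1 was at 10.02, 10.10 and 9.85 in OB cKO, against 8.41, 8.41 and 8.33 in SEZ cKO arrays, a difference of 1.60 (adjusted p = 8.78e-11). All these genes separated the tissues completely.

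Ctss (-0.93, adjusted p = 0.00363), Mpeg1 (-1.001, adjusted p = 0.0404), Fcgr3 (-0.67, adjusted p = 0.0301), Ly86 (-0.67, adjusted p = 0.0222) and Tyrobp (-0.49, adjusted p = 0.0231) passed here and not in controls. Siglech (-0.36), C1qc (-0.24) and Aif1 (-0.41) passed in controls and not here. These differences between genotypes are the difference of the cKO effects given further on, in which no member passed. With 3 arrays a side the count rested on single arrays. It was 9 without OB cKO replicate 1, 8 without OB cKO replicate 3 and 7 without SEZ cKO replicate 1. In the fit on only the 2 cKO groups Cd53 (adjusted p = 0.0515), Fcgr3 (0.0601) and Cx3cr1 (0.116) lost the call. With the array cluster as a block 19 members passed, the 4 gained being Siglech, Laptm5, Aif1 and C1qb, all lower in OB (adjusted p from 0.0129 to 0.0488). Counts over all genes in these runs are not given here either.

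**Figure D3:**
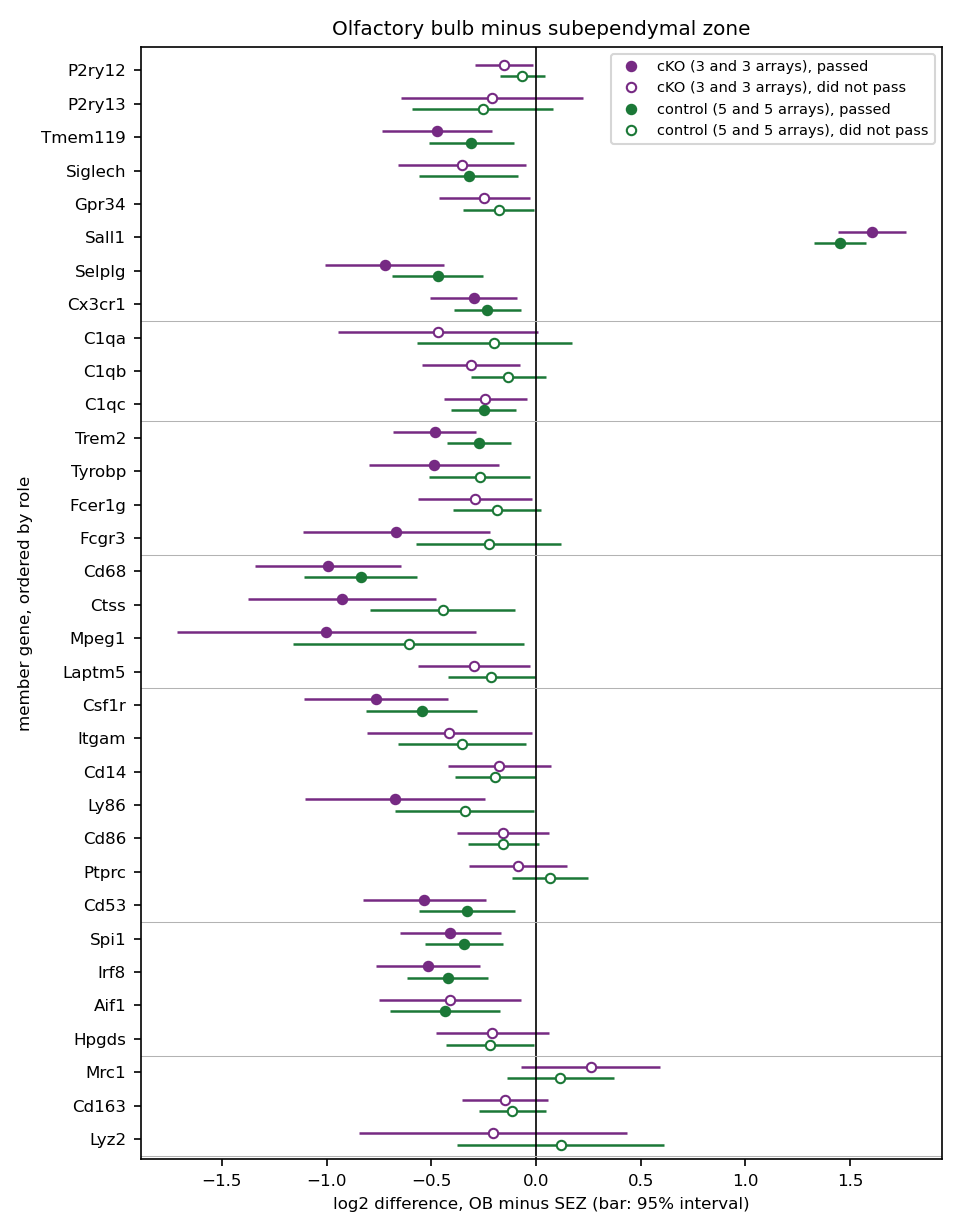
Log2 difference, OB minus SEZ, of each gene in cKO (purple, 3 and 3 arrays) and control mice (green, 5 and 5 arrays), with its 95% interval from the fit, filled where the adjusted p was under 0.05. Most genes lie left of 0 in both genotypes, Sall1 lies at 1.60 and 1.45, and the intervals of Mrc1, Cd163 and Lyz2 include 0.

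The border macrophage genes did not pass between the tissues. Mrc1 was at 6.72, 6.84, 6.27, 6.49 and 6.18 in OB controls, against 6.43, 6.53, 6.18, 6.35 and 6.44 in SEZ controls. The groups overlapped, and the difference was 0.12 (95% interval -0.14 to 0.37, adjusted p = 0.5676). Lyz2, lysozyme of myeloid cells, was at 7.999, 8.49, 7.37, 8.37 and 8.37 in OB controls, against 7.66, 8.40, 7.36, 8.12 and 8.46 in SEZ controls. Its spread within groups was large, with replicate 3 lowest in both tissues, and the difference of 0.12 had a 95% interval from -0.38 to 0.61. Without SEZ control replicate 3 it was -0.04, and with array weights -0.11. Cd163, near the low end of the arrays, was at -0.11 (95% interval -0.27 to 0.05). In cKO mice the 3 differences were 0.26 for Mrc1, -0.15 for Cd163 and -0.21 for Lyz2, and none passed. Lyz2 is also expressed by monocytes and neutrophils, and its near-identical neighbour Lyz1 has a probe set of its own, so signal shared between them cannot be assigned.

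To set homeostatic against border macrophage genes on each array, the deviations of each gene from the mean of its 4 group means were averaged. The 8 homeostatic genes averaged -0.08 ± 0.11 in OB cKO (n = 3) and 0.005 ± 0.07 in OB control arrays (n = 5), and 0.02 ± 0.07 in SEZ cKO and 0.05 ± 0.07 in SEZ control arrays. Without Sall1, an option added after the data were seen, they were at -0.21 ± 0.11 in OB cKO and -0.10 ± 0.09 in OB control arrays, and at 0.15 ± 0.07 in SEZ cKO and 0.16 ± 0.08 in SEZ control arrays. All 8 OB arrays then lay at or below 0.03, and all 8 SEZ arrays at or above 0.07. The border macrophage genes averaged -0.07 ± 0.10 in OB cKO and 0.07 ± 0.22 in OB control arrays, and -0.04 ± 0.14 in SEZ cKO and 0.03 ± 0.20 in SEZ control arrays, with full overlap.

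Homeostatic minus border, the OB controls were at -0.07 ± 0.25 and the SEZ controls at 0.02 ± 0.21, and the difference of -0.09 was smaller than the spread within either group. It was -0.30 without Sall1 and -0.28 with all 30 other members in place of the homeostatic genes. No p is given for these averages, since the genes were chosen with earlier results of these data known. The border average rests on 3 genes, of which Lyz2 had the widest spread (SD 0.46 in OB and 0.48 in SEZ controls).

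**Figure D4:**
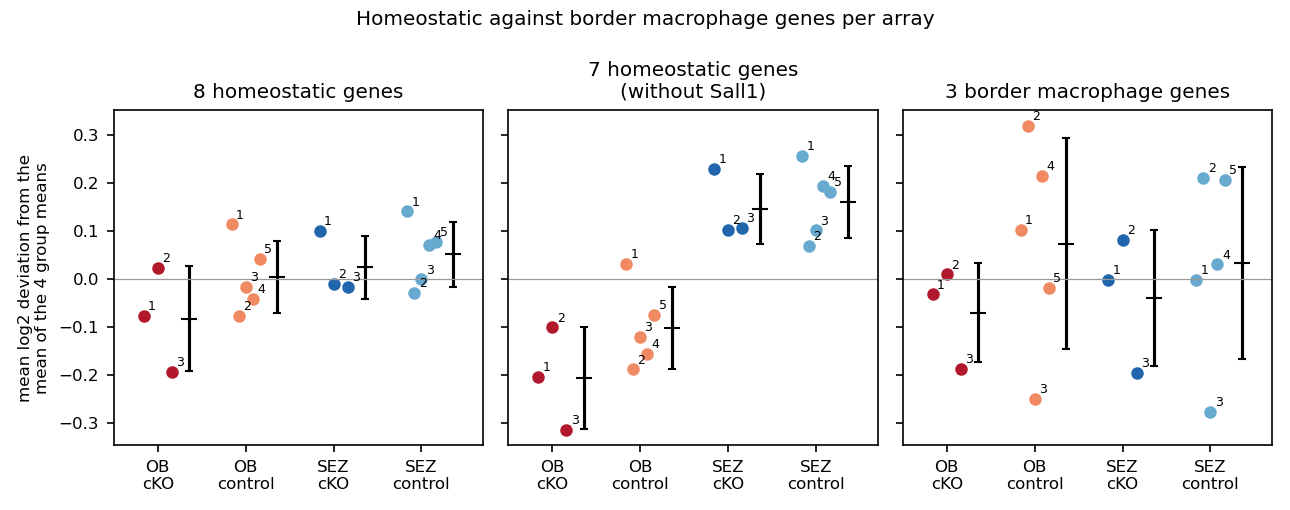
Mean log2 deviation per array (points, numbered by replicate, with the group mean and SD in black) of the 8 homeostatic genes, of 7 without Sall1 and of the 3 border macrophage genes. The tissues separate in the middle panel, where OB arrays lie at or below 0.03 and SEZ arrays at or above 0.07, and overlap in the other panels.

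Other genes of these cells were read from lists written by hand. Between the control tissues 14.9% of all genes were lower in OB and 12.6% higher, and list counts near these shares are not read as particular to a list. Of 40 further microglial genes, 35 were measured, 10 were lower and 1 higher in OB than in SEZ controls, with a median of -0.21. The lymphoid and myeloid factor Ikzf1 was at -0.58 (adjusted p = 4.62e-05) and the interleukin 10 receptor Il10ra at -0.49 (adjusted p = 0.00149). The gene that rose was Mef2c (0.78, adjusted p = 2.59e-08), a transcription factor that neurons also express strongly. Of 20 further border macrophage genes measured, 19 did not pass and 1, Cd36, was lower. Their median was 0.08 and 4 of 20 estimates were below 0. Their mean level was low too, at 6.23 to 6.62 in OB control and 6.26 to 6.43 in SEZ control arrays.

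The list of activated or disease-associated microglia had 1 of 19 measured genes higher (Gpnmb, 1.57) and 3 lower (Lpl, -2.68, Cd9, -0.66, and Lgals3, -0.28). Lpl, Cd9 and Lgals3 are also known from other cells of the brain. Among 12 ligands of microglial receptors 3 were higher and 4 lower in OB controls. Il34, a neuronal ligand of Csf1r, was at 9.44 ± 0.02 in OB and 9.70 ± 0.11 in SEZ controls (SD, n = 5 each), a difference of -0.27 (adjusted p = 0.00505). Tgfb2 was at 0.37 (adjusted p = 0.000528) and Ltbp3, which stores latent TGF-beta, at 0.65 (adjusted p = 0.0027).

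Markers of other cells differed between the tissues too. All 9 measured myelin genes were lower in OB controls (median -1.17), as were 7 of 11 endothelial and mural genes (median -0.31), 4 of 7 choroid plexus genes and 6 of 8 ependymal genes, of which 2 were higher. On each OB array the mean levels of the myelin list and of the endothelial and mural list were lower than on each SEZ array. The mean log2 level of the 11 endothelial and mural genes ran from 8.32 to 8.58 in OB cKO and 8.32 to 8.64 in OB control arrays, against 8.71 to 8.89 in SEZ cKO and 8.71 to 8.82 in SEZ control arrays. That of the 9 myelin genes ran from 9.84 to 10.53 in OB cKO and 10.15 to 10.45 in OB control arrays, against 11.29 to 11.65 in SEZ cKO and 11.13 to 11.82 in SEZ control arrays. Of 16 genes of monocytes, granulocytes and lymphocytes 1, Cd4, was lower in OB (-2.22), and the other 15 did not pass. The mean level of this list was 5.78 to 5.95 in OB control and 5.89 to 6.16 in SEZ control arrays. That is near the low end of the arrays, which limits what can be seen of these genes. Of 10 meningeal fibroblast genes 1, Fmod, was higher (0.88). The part of these cells in the result was not tested.

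The cKO effect was then read within each tissue. In OB no member passed (all adjusted p = 1), where 0.0451% of all genes fell and 0% rose. The estimates were below 0 in 27 of 33 members (81.8%), against 52.1% of all genes, and their median was -0.13, against -0.005 over all genes. At an unadjusted p under 0.05, 8 of 33 members (24.2%) were lower, where 2.64% of all genes were, and 0 were higher, where 0.868% of all genes were. The 8 were P2ry12, C1qb, Trem2, Fcer1g, Fcgr3, Ctss, Ly86 and Cd53. With the replicate number as a fixed block the unadjusted list held 5 members, Trem2, Fcer1g and Cd53 of these 8 and also Cd68 and Lyz2. With genotype and number together as a random block it held the same 8. That random block ties arrays of the same genotype and number across tissues, so it does not pair OB cKO with OB control arrays. Counts over all genes in these block runs are not given here, so they are not read as particular to the members. No member passed the adjusted test in these runs, and genes of one cell type on the same arrays are not independent counts.

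Trem2 was at 8.37, 8.76 and 8.66 in OB cKO, against 8.80, 8.88, 8.82, 8.80 and 8.79 in OB control arrays. It and P2ry12 were the 2 members in which every cKO array lay below every control (1.57% of all genes). Replicate 1 was the lowest for Trem2 and replicate 3 for P2ry12. The difference of Trem2 was -0.22 (95% interval -0.40 to -0.04). P2ry12 was at 8.15, 8.19 and 8.08 in OB cKO, against 8.24 to 8.33 in OB control arrays, a difference of -0.13 (95% interval -0.25 to -0.002).

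Fcer1g was at 9.15, 9.03 and 8.63 in OB cKO, against 9.32, 8.98, 9.26, 9.24 and 9.37 in OB control arrays. Replicate 3 was far below the others, and the groups overlapped through 1 control, with a difference of -0.30 (95% interval -0.54 to -0.06). Ctss was at 8.65, 9.28 and 8.88 in OB cKO, against 8.97, 9.32, 9.12, 9.61 and 9.74 in OB control arrays. Here replicate 2 lay among the controls, and the difference was -0.41 (95% interval -0.82 to -0.01). In Fcgr3 (-0.42), Ly86 (-0.39), Cd53 (-0.28) and C1qb (-0.23), too, replicate 2 was the highest of the cKO arrays and lay within the range of the controls.

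The 3 OB cKO arrays were not alike. Among the 30 members other than border macrophage genes, OB cKO replicate 1 was the lowest of its group in 15, replicate 3 in 14 and replicate 2 in 1, and replicate 2 was the highest in 25. Replicates 1 and 3 lie in the array cluster whose averages of Mpeg1, Fcgr3 and Ctss are the lower ones, and replicate 2 in the other. The array medians of replicates 1 and 3 were 7.633 and 7.654, against 7.51 for replicate 2. What this adds to the differences was not tested. Within the first cluster (2 cKO and 2 control arrays) the median of the members was -0.19, and within the second (1 and 3 arrays) it was -0.03. Without OB cKO replicate 1 only Fcer1g, and without OB cKO replicate 3 only Trem2, kept an unadjusted p under 0.05. With the cluster as a block 8 members had one, of which Trem2, Fcer1g, Fcgr3, Ctss, Cd53 and C1qb were also among the 8 before, and still none passed the adjusted test. Counts over all genes in these runs are not given here, so they are not read as particular to the members.

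**Figure D5:**
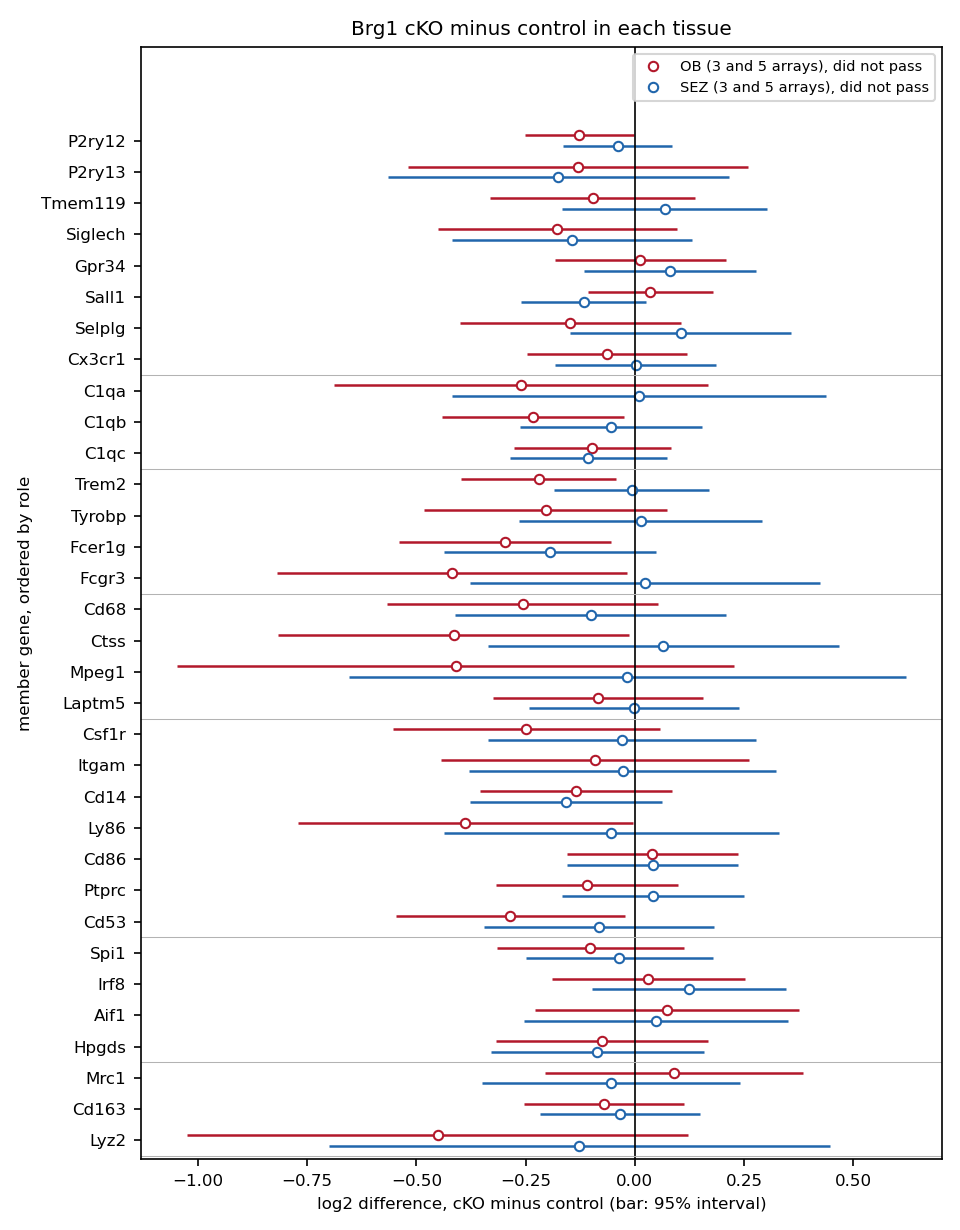
Log2 difference, cKO minus control, of each gene in OB (red) and SEZ (blue) with its 95% interval from the fit, 3 and 5 arrays each. No gene passed (open points). In OB 27 of 33 estimates lie below 0, and in SEZ the estimates lie between -0.19 and 0.12.

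In SEZ no member passed either (0% of all genes did in either direction), and at an unadjusted p under 0.05 there were 0 members each way, where 1.01% of all genes were lower and 1.46% higher. The estimates ran from -0.19 to 0.12 with a median of -0.03, and 21 of 33 were below 0 (63.6%, against 48% of all genes). Sall1 had the lowest p. It was at 8.41, 8.41 and 8.33 in SEZ cKO, against 8.54, 8.49, 8.50, 8.42 and 8.56 in SEZ control arrays. It was the 1 member in which every cKO array lay below every control (1.05% of all genes), by a narrow margin, and the difference was -0.12 (95% interval -0.26 to 0.03, limma adjusted p = 1, unadjusted 0.103). Fcer1g was at -0.19 (95% interval -0.44 to 0.05) and Cd14 at -0.16 (95% interval -0.38 to 0.06). For Cd68 in SEZ the interval, -0.41 to 0.21, leaves room for a change in either direction.

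The border macrophage genes did not pass in either tissue. In OB Mrc1 was at 0.09 (95% interval -0.20 to 0.39), Cd163 at -0.07 and Lyz2 at -0.45 (95% interval -1.02 to 0.12). In SEZ they were at -0.05, -0.03 and -0.13. The signs of Mrc1 rest on cKO replicate 1, without which it was at -0.02 in OB and 0.01 in SEZ.

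The difference between the 2 cKO effects, SEZ minus OB, was tested directly. No member passed, where 0.00502% of all genes did, and 0 had an unadjusted p under 0.05, where 0.973% of all genes were higher and 0.512% lower. Ctss was at 0.48 (95% interval -0.09 to 1.05) and Trem2 at 0.21 (95% interval -0.04 to 0.46). Estimates were above 0 in 26 of 33 members, against 55% of all genes.

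The further lists in the cKO comparisons held 1 call. Of the 35 further microglial genes none passed in OB, 28 estimates were below 0 and their median was -0.13, and Olfml3, a secreted protein of microglia, was at -0.38 in OB and -0.36 in SEZ without passing. The call was Cd24a, a surface glycoprotein of migrating neuroblasts that binds the lectin Siglec-G in mouse, at -1.50 in OB (adjusted p = 0.00525) and -0.41 in SEZ (adjusted p = 1). Tgfb2 was at -0.39 in OB (adjusted p = 0.205). The medians of the endothelial and mural (0.05), monocyte, granulocyte and lymphocyte (0.01) and further border macrophage lists (0.02) in OB were above 0. So were those of the meningeal fibroblast (0.06), choroid plexus (0.008), ependymal (0.04), red blood cell (0.15) and ligand lists (0.005). Below 0 were those of the myelin (-0.08), activated or disease-associated microglia (-0.02), cortical neuron (-0.02) and astrocyte lists (-0.002).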

How the data were processed

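Total RNA of 16 samples was measured on 1-colour Affymetrix arrays. The deposited values are log2 expression per probe set, made by the authors with RMA in Affymetrix Expression Console 1.2, per the submitters' processing notes. RMA corrects background, normalises by quantiles and summarises probes, which is meant to remove a shift common to all genes. The array medians of the deposited values still ran from 7.45 to 7.65, so the arrays were not on fully equal levels. Depth has no meaning here. The number of arrays limits the precision. No 2 arrays were duplicates of each other (highest correlation between arrays 0.995).

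The platform annotation gave 1 gene symbol to 21789 of 35556 probe sets, several to 1621 and none to 12146. The brightest probe set per gene gave 19938 genes. Probe sets with several symbols or none were left out. Groups follow the labels.

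All arrays were fitted with limma 3.58.1 in R 4.3.3 (lmFit, eBayes, 4 groups, no covariate), with two-sided tests and Benjamini-Hochberg adjustment across all genes (threshold 0.05). Intervals are of single genes and not adjusted. P-values measure the spread between these samples. The fit was tested on simulated data. The members, the lists and the rule for naming genes (all members, and of other lists up to 4 with the smallest p per comparison) were chosen with earlier results of these data known. Alternatives were fits on the 2 groups compared, a filter at the median level, cyclic loess, median centring, array weights, replicate blocks, the array cluster as a block, and leaving out arrays. The replicate blocks were the number as a fixed term, or genotype and number together as a random term.

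Replicate numbers come from the labels, which do not say that a number marks 1 mouse. Deviations from group means of same-numbered arrays correlated at 0.174 to 0.566 in the 5 pairs of OB and SEZ controls and at 0.324 to 0.428 in the 3 pairs of OB cKO and OB control arrays, which were taken as paired. They correlated at -0.061 to 0.385 between the cKO tissues and at -0.405 to 0.611 between the SEZ genotypes, which were not. Both arrays of each pair taken as paired lay in the same array cluster, so number and cluster cannot be told apart there. Arrays of different genotypes cannot come from 1 mouse. By the labels this also holds for control number 5, which is Brg1fl/+ in OB and Brg1+/+ in SEZ. The fixed block gave each number a term common to all groups, also those not taken as paired. Promoters are RefSeq sequences of GRCm38.p6, 250 bases before the start, for 24 of 33 members. The sources used here do not give the array's own build.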

Additional observations from a re-analysis of the deposited data

Results flagged for a closer look

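Of 66 groups of 5 arrays tested over the 33 members, 2 held an array far from the others, where chance alone gives 1 in 20, or 3.3. P2ry12 was at 8.329 in OB control replicate 3, above the other OB controls at 8.24 to 8.257. Cd53 was at 8.491 in SEZ control replicate 3, below the other SEZ controls at 8.791 to 8.878. Without SEZ control replicate 3, Cd53 kept its call between the tissues.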

How the results depend on the processing

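The counts of members called for a cKO effect were 0 in OB, in SEZ and for their difference under every alternative run. This held with the replicate number as a fixed block and with genotype and number together as a random block too. For OB against SEZ controls 13 members were called, 21 with array weights, 18 with the fixed replicate block, 15 with the random one and 9 to 16 when arrays were left out singly. For OB against SEZ cKO 15 were called, 18 and 17 with the replicate blocks, 7 to 18 when arrays were left out singly, 9 without cKO number 3 of both tissues and 4 without cKO number 1 of both. The counts over all genes under these alternatives are not given here, so gains and losses are not read as particular to the members. Arrays of the 2 cKO tissues and of the SEZ genotypes were not taken as paired. There 1 of 3 and 2 of 3 arrays correlated best with their own number. Among those taken as paired it was 4 of 5 between the control tissues and 2 of 3 between the OB genotypes. Where the numbers were taken as pairs, the fixed block added the 5 calls between control tissues given with that comparison and changed no other call. Homeostatic minus border ran from -0.163 to -0.006 when control arrays were left out singly and was -0.05 without Lyz2 and -0.07 with cyclic loess.

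Signs turned only in comparisons in which the gene did not pass. For the cKO effect this held for many members, also ones that passed between the tissues. Over the alternative runs Cx3cr1 in OB ran from -0.156 to 0.026 and Irf8 in OB from -0.040 to 0.131. Csf1r in SEZ ran from -0.130 to 0.099. Details follow for the border macrophage genes only. Lyz2, OB minus SEZ, was -0.109 in controls with array weights and 0.021 in cKO with the cluster as a block. Lyz2 in SEZ cKO was 0.0533 with the fixed replicate block, 0.0463 without SEZ controls 2 and 4 and 0.0567 without cKO number 3 of both tissues. Mrc1 was -0.0239 in OB and 0.0057 in SEZ without cKO number 1 of both tissues. With single arrays left out, Lyz2 between control tissues ran from -0.0416 (without SEZ control replicate 3) to 0.306 and Mrc1 in OB from -0.0239 to 0.186. In SEZ, Lyz2 ran from -0.286 to 0.0567 (without SEZ cKO replicate 3), Cd163 from -0.0563 to 0.0139 (without SEZ control replicate 1) and Mrc1 from -0.135 to 0.0057. The causes were not tested. Median centring moved the median of all genes by less than 0.1. Low levels on the arrays (Gpr34, Cd163, Cd86) limit what can be seen of those genes.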
